A study of Mus musculus with 18 samples.

Results

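The liver of unexposed newborn mice was compared with a universal mouse reference RNA on the 10 control arrays of a series of 18. Each array carried Cy5-labelled liver RNA of 1 pup and Cy3-labelled Stratagene Universal Reference RNA, a commercial pool of RNA from mouse cell lines. The 10 control samples were chosen by their group label alone: 5 were labelled female and 5 male. The pups were C57BL/6BomTac mice killed on postnatal day 2. Their mothers received only the vehicle, Milli-Q water, in 4 intratracheal instillations, the first on gestational day 7, the next on days 10 and 15 and the last on day 18, so these controls shared the instillation procedure with the exposed pups. The other 8 arrays held pups of mothers given a total of 268 µg of the carbon black Printex 90 on the same days, and their values appear only beside those of the controls. The labels do not say which pups were littermates, so p-values measure the spread between these 10 samples, some of which may share a litter.

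The liver around birth does several jobs at the same time. Its hepatocytes secrete most plasma proteins and, once placental supply ends, take up gluconeogenesis, fatty acid oxidation and urea synthesis. It still produces blood cells, a task that moves to the bone marrow after birth. Cells grown in culture, of which the reference RNA is made, divide quickly and are rich in cytoskeletal and matrix transcripts. A log2 ratio of liver over reference therefore compares a tissue with a mixture of cultured cells, and a gene near 0 is one whose share is similar in both.

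The labelled tissue was checked with 4 hepatocyte markers. Afp, the fetal counterpart of albumin, had log2 ratios from 6.51 to 8.99 with a median of 7.62. Alb, which encodes albumin, lay between 3.38 and 4.95 with a median of 3.82. Apoa1, the main protein of high-density lipoprotein, lay between 4.21 and 5.62, and Ttr, the thyroxine and retinol carrier transthyretin, between 4.64 and 5.26. All 4 were above 0 in all 10 pups and past the test of a change over 2-fold described below. The mean was 7.68 ± 0.19 for Afp, 3.95 ± 0.12 for Alb, 4.87 ± 0.10 for Apoa1 and 4.88 ± 0.05 for Ttr; here and below, ± is limma's moderated SE of the mean log2 ratio over the 10 control pups unless another error is named.

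Promoters are shown for 2 hepatocyte genes and 2 red-cell genes because both gene groups were high in this tissue. Each promoter shown holds the letters marked in it, and that of Apoa1, which does not hold the HNF1 letters, is not shown. Sequences are RefSeq's, build GRCm38.p6, 300 bases long and reaching 50 bases past the annotated start, read 5′ to 3′ on the gene's strand. In the Alb and Afp promoters, capitals mark the letters GTTAATNAT on either strand, the core of the HNF1 motif, a liver-enriched factor. In the Alas2 and Kel promoters they mark AGATAA on either strand, a form of the GATA motif, which is bound by erythroid GATA factors. The regions are chr5:90460620-90460919 (plus strand) for Alb, chr5:90490464-90490763 (plus strand) for Afp, chrX:150547167-150547466 (plus strand) for Alas2 and chr6:41704276-41704575 (minus strand) for Kel.
Alb: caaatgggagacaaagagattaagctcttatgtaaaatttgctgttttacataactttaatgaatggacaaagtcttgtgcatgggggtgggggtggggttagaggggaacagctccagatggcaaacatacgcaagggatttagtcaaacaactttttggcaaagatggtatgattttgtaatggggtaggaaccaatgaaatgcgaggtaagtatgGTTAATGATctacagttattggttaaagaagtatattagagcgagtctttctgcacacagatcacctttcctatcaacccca
Afp: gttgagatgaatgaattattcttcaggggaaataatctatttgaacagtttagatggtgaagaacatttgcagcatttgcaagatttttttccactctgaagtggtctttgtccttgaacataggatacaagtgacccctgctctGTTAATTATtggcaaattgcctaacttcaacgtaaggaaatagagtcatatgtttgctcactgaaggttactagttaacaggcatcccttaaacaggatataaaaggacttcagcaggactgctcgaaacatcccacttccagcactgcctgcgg
Alas2: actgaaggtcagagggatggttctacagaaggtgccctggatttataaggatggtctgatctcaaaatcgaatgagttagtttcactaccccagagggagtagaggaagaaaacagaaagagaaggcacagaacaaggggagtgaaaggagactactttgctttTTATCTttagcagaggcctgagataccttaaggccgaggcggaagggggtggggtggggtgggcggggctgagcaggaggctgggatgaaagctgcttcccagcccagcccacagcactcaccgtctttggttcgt
Kel: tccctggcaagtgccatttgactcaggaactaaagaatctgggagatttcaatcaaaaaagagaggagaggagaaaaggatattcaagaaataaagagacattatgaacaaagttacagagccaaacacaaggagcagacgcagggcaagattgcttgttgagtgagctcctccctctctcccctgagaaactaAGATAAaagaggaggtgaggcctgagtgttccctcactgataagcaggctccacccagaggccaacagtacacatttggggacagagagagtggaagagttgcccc
The HNF1 letters began at position -32 from the start site in Alb and at -105 in Afp, and the GATA letters at -86 in Alas2 and -56 in Kel. Of the 4 markers, 3 had a promoter sequence that could be used, and 2 of the 3 held the HNF1 letters, against 0.940% of the 27025 genes with a promoter. Of 35 red-cell genes tested, 24 had a promoter and 9 of these held the GATA letters, against 12.7% of all genes. Among the 14 of the 20 highest genes with a promoter, HNF1 was found in 1, the HNF4 letters CAAAGTCCA in 2 (Cyp3a16 and Cyp3a41a; 0.555% of all genes) and the C/EBP letters TTGCGCAA in 0. TATAAA was found in 7 of those 14 and in 10 of 18 of the 20 lowest genes with a promoter, against 15.7% of all genes. These matches describe the letters in these windows and no more.

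The scale of the ratios has 3 limits that touch every value. No array had the dyes exchanged, so a difference between liver and reference and a difference between Cy5 and Cy3 cannot be told apart for any single gene. Loess normalization sets the typical transcript near 0; the median over all transcripts tested was 0.017. The spike-in controls, RNAs of known ratio added to both samples, lay above that zero on every array, between 0.55 and 1.45 with a mean of 0.895 (SD 0.274, n = 10). Scaling to the spikes moves the median of all transcripts by -0.895, so a gene at 0 here reads as lower in liver on the spike scale. Signals of a few transcripts approached the top of the scanner range in Cy5: Alb reached 79.2% to 91.1% of the software's saturation value and Afp 68.5% to 76.1%, without being marked saturated. Median Cy5 signals were 130 to 144 against a background of 80 to 82.5, and 57.8% to 68.5% of probes lay well above background in Cy5. The ratios of any pair of control arrays correlated across transcripts at 0.969 to 0.989. A pair of libraries stood apart: the one labelled control male 6 went against its label in sex-linked genes, and control male 3 had higher ratios of exocrine pancreas genes than the others, both described below. Without the first, 3745 transcripts passed the 2-fold test given next, and without the second 3788, against 3800 with all 10.

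Of 21252 transcripts tested, 18856 (88.7%) differed from the reference at an adjusted p of 0.05 in limma, 9670 higher (45.5%) and 9186 lower (43.2%) in liver. With a median SE of 0.038 on the log2 scale, small differences pass that test, so calls below use limma's treat test of a change over 2-fold, also at an adjusted p of 0.05. It called 3800 transcripts (17.9%): 2445 higher (11.5%) and 1355 lower (6.38%). Of these calls, 99.97% had the same sign on every array with a value. The split depended on the scale. It was 2137 higher and 1951 lower in the authors' deposited value table, 3522 and 3577 with the scanner software's processed signals, 2895 and 921 without normalization within arrays, and 1148 and 6032 on the spike scale. List counts below are read against the 11.5% called higher and the 6.38% called lower, as descriptions. They include genes that passed the filter through 1 channel alone, not all of them named below. Habp2 and Klkb1 in coagulation, for example, had the reference above background on 0 and 4 arrays. Timd4 and Mrc1 among macrophage genes had it on 0 and 2. The size of such a ratio is uncertain. Liver is a mixture of cells, and more cells of a type cannot be told apart from more RNA per cell.

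The highest ratio of a named gene belonged to Rgn, which encodes regucalcin, a calcium-binding lactonase of hepatocytes. Its log2 ratio ran from 7.95 to 9.20 with a median of 8.52, a mean of 346-fold over the reference. Cyp3a41a, a cytochrome P450 of the drug-metabolizing 3A subfamily, followed with 7.51 to 8.70 and a mean of 8.12 ± 0.10. Akr1c6, a hydroxysteroid dehydrogenase, lay between 7.61 and 8.85 with a mean of 8.04 ± 0.10. The means of these 3 genes lay within the range of each other's pups. The other genes of the highest 20 had means from 6.78 to 7.80. They included the fatty acid hydroxylase Cyp4a14 (7.74), the fatty acid carrier Fabp1 (7.10), the lipid-binding plasma protein Apoh (7.66), the complement regulator Cfi (7.66), the fibrinogen chain Fgg (6.94) and the epoxide hydrolase Ephx2 (6.83). Csta1 (7.80) and Cstdc6 (7.72), both cystatin-type protease inhibitors, and S100a9 (6.86), a calcium-binding protein of neutrophils, stood among them. Probes of close gene families, such as Cyp3a and the cystatins, may share signal between members, which was not tested.

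**Figure D1:**
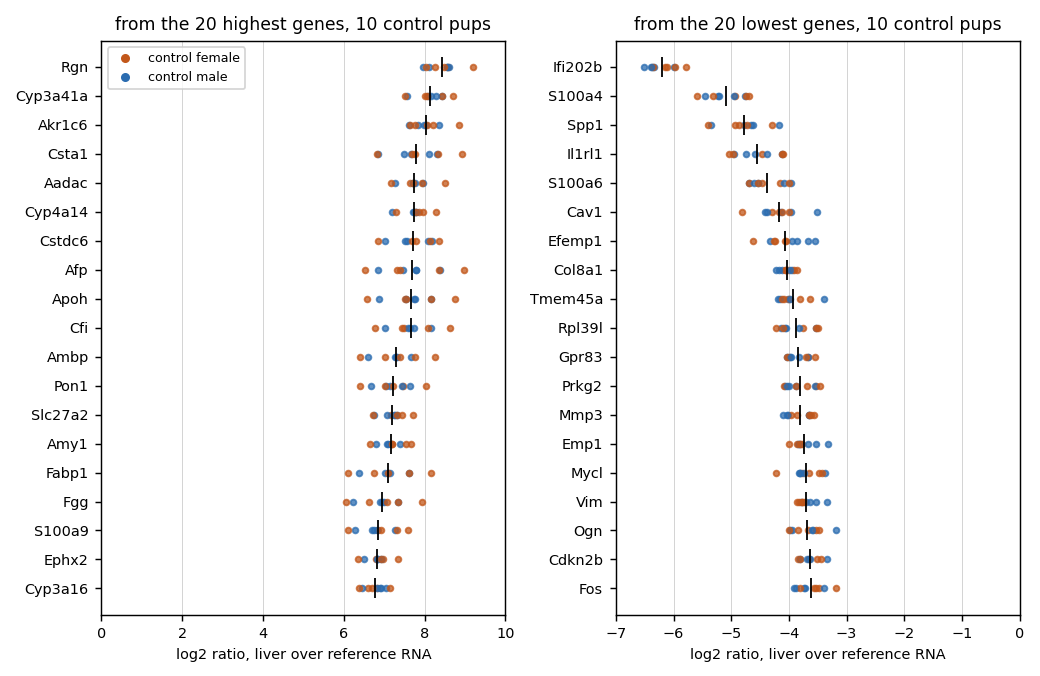
The log2 ratio of liver over reference RNA (x axis) for genes from the 20 highest and the 20 lowest named (y axis), 1 point per control pup, orange for labelled females and blue for labelled males, with the mean as a black bar. All 10 pups lay above 6 for each of the highest genes drawn and below -3 for each of the lowest.

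Secreted plasma proteins stood highest as a group. Of 26 carrier and inhibitor proteins tested, 25 were higher past 2-fold and 0 lower, with a median log2 ratio of 4.95. Fetub, a fetuin, lay between 5.52 and 6.25, and the thyroxine-binding globulin Serpina7 had a mean of 5.15 ± 0.07. The member not called was the acute-phase glycoprotein Orm1 at 0.21. In coagulation, 21 of 23 genes were higher and 1 lower (median 4.89). F13b, the carrier subunit of factor XIII, lay between 5.94 and 6.55, a mean of 71.2-fold. The gene that was lower was F3, tissue factor, at -2.13 ± 0.05, a receptor made mainly outside hepatocytes. In complement, 22 of 23 were higher and 0 lower (median 4.35), with C8a at 5.78 ± 0.06 and Masp1 at 5.24 ± 0.05, although a second probe of Masp1 read 2.25. Apolipoproteins and lipoprotein enzymes were higher in 20 of 22 (median 4.17). Apob, the backbone of very-low-density lipoprotein, averaged 6.29 ± 0.09, with its 3 probes spread from 4.20 to 7.02. The phospholipid transfer protein gene Pltp stood at -0.06 and did not pass.

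Acute-phase genes were less uniform: 9 of 15 were higher and 2 lower, with a median of 1.57. Serpina3n, an inhibitor of serine proteases, averaged 3.82 ± 0.08, Saa4, the constitutive serum amyloid A, 3.96 ± 0.06 and the endotoxin-binding protein gene Lbp 2.81 ± 0.05. The inducible forms Saa1 and Saa2 stood at -0.30 and 0.36 and did not pass, Saa3 was lower at -1.94 ± 0.05 and the inflammation-responsive factor Cebpd was lower at -1.70 ± 0.05. On the spike scale 4 of the 15 were higher and 3 lower.

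Genes of the metabolic functions taken up at birth were high against the reference. No other age was measured, so these ratios do not show a change at birth. Fatty acid oxidation and ketone synthesis had 26 of 27 genes higher and 0 lower, with a median of 2.88. Acaa2, the mitochondrial thiolase, lay between 3.80 and 4.08, a narrow range among pups. Acsl1, which activates fatty acids, averaged 5.09 ± 0.05 and Acadl, a long-chain dehydrogenase, 3.13 ± 0.03. Only Acads, the short-chain dehydrogenase, did not pass in this list, at 0.98. Glucose production and glycogen genes were higher in 13 of 17 and lower in 0 (median 3.00). Pygl, the liver glycogen phosphorylase, lay between 5.24 and 5.50, Pcx, which makes oxaloacetate from pyruvate, averaged 3.79 ± 0.05, and Slc37a4, the glucose 6-phosphate transporter, 3.00 ± 0.04.

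All 10 urea cycle and ammonia genes tested were higher past 2-fold, with a median of 3.34. Otc, ornithine transcarbamylase, lay between 4.87 and 5.49, with the reference signal above background on 5 arrays. Arg1, arginase, averaged 4.97 ± 0.06 and Slc25a13, the aspartate and glutamate carrier, 3.73 ± 0.04. Amino acid breakdown had 24 of 29 genes higher and 0 lower (median 4.14). Aass of lysine breakdown averaged 5.55 ± 0.05 and Gldc of the glycine cleavage system 4.87 ± 0.04. Tdo2, the tryptophan dioxygenase of mature hepatocytes, stood at 0.35, with Cy5 above background on 5 arrays and Cy3 on 0, and did not pass.

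Lipid synthesis did not stand out in the same way. Of 18 lipogenic genes 5 were higher and 2 lower; their median of 0.60 became -0.29 on the spike scale. Dgat2, of triglyceride assembly, averaged 3.81 ± 0.03 and the carbohydrate-sensing factor Mlxipl 4.43 ± 0.07, whereas the desaturase Scd1 was lower at -1.71 ± 0.06 and malic enzyme Me1 at -1.73 ± 0.04. Fasn (-0.43), Acaca (0.02) and Acly (0.35), the core enzymes of fatty acid synthesis, did not pass. In cholesterol synthesis 9 of 22 genes were higher and 0 lower, with a median of 0.49 that became -0.41 on the spike scale, where 3 were higher and 2 lower. Of these, Tm7sf2 averaged 3.45 ± 0.05 and Sc5d 3.02 ± 0.05. The regulator Srebf2 (-1.05) did not pass.

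Bile acid synthesis and transport genes were higher in 17 of 19 and lower in 0 (median 3.32). Among the higher, Cyp7b1, Cyp8b1, Slc51b and Cyp7a1 had the reference above background on 0, 1, 2 and 3 arrays. Acox2, a peroxisomal oxidase of the side chain, lay between 4.08 and 4.42, Hsd3b7 averaged 3.32 ± 0.03 and the bile acid receptor Nr1h4 3.85 ± 0.04. Of 36 cytochrome P450 and reductase genes, 31 were higher and 0 lower (median 4.33), among them Cyp2c70 at 5.60 ± 0.07, Cyp3a13 at 5.09 ± 0.06 and Cyp2c37 at 4.33 ± 0.05. Cyp2b10 (0.37, reference above background on 0 arrays), Cyp17a1 (0.71) and Cyp26a1 (0.03) did not pass. Conjugating enzymes and transporters were mixed: 34 of 48 were higher and 3 lower (median 2.44). The glutathione transferase Gsta3 averaged 5.23 ± 0.06 and the aldehyde oxidase Aox3 3.75 ± 0.04. Lower were Nnmt (-2.62 ± 0.05), the oxidative-stress responsive quinone reductase Nqo1 (-1.44 ± 0.05) and the glutathione transferase Gstm2 (-1.61 ± 0.06).

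Transcription factors and nuclear receptors of hepatocytes were higher in 17 of 24 and lower in 0, with a median of 3.12. Foxa2, a forkhead factor of endoderm, averaged 4.61 ± 0.05 and the xenobiotic receptor gene Nr1i3 2.97 ± 0.03. Foxa1 (0.05), Cebpb (-1.02) and Zbtb20 (-0.79) did not pass.

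Markers of the fetal and of the maturing liver were present together. Of 20 fetal and imprinted genes 8 were higher and 4 lower; the median of 0.81 became -0.085 on the spike scale. Besides Afp, the growth-restraining glypican Gpc3 lay between 5.55 and 6.31, the imprinted cell-cycle inhibitor Cdkn1c between 4.15 and 4.54 and the imprinted Mest between 4.15 and 5.09. Lower were the chromatin proteins Hmga2 (-2.56 ± 0.05) and Hmga1 (-1.78 ± 0.05) and the RNA-binding proteins Igf2bp1 (-1.21 ± 0.03) and Igf2bp2 (-1.21 ± 0.04); Igf2bp1 did not pass without normalization, and Igf2bp2 neither there, nor with median centring, nor in the females alone. Lin28a (0.38, reference above background on 0 arrays) and Lin28b (0.93), regulators of fetal blood and growth programmes, did not pass. Of 27 genes known to rise after birth, 23 were higher than the reference past 2-fold and 0 lower (median 2.53). On the spike scale 16 were higher. No earlier or later liver was measured, so these ratios do not show a rise. Cyp3a11, the main adult form of its subfamily, lay between 4.78 and 5.79 and the glutamine synthetase Glul averaged 3.80 ± 0.06. Elovl3 (-0.20, Cy5 above background on 1 array) and the growth hormone receptor gene Ghr (0.63) did not pass. In the insulin-like growth factor system, 7 of 15 were higher and 1 lower (median 0.96). Igfbp1, an insulin-repressed binding protein, lay between 5.53 and 7.35, Igfbp2 averaged 4.31 ± 0.06 and Igfals, the acid-labile subunit, 2.69 ± 0.06, while Igfbp6 was lower at -1.57 ± 0.06. Igf2 and Igf1, named for their role after their values were seen, had means of 4.09 and 2.09.

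**Figure D2:**
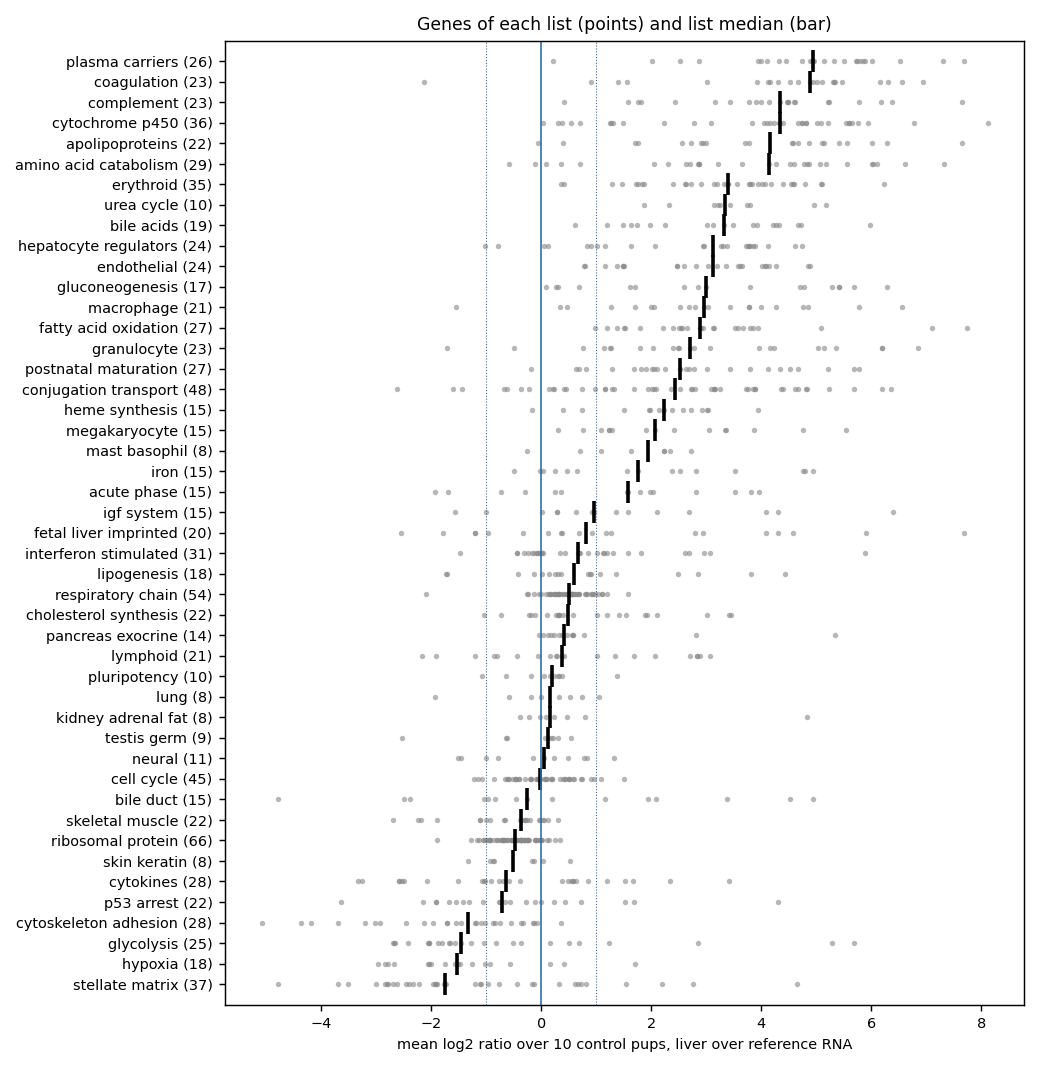
Mean log2 ratio of liver over reference RNA over the 10 control pups (x axis) for the genes of each list with 8 or more tested members (y axis, number tested in parentheses); grey points are genes, black bars list medians, and dotted lines mark a 2-fold difference. Plasma carriers (median 4.95) and coagulation genes (4.89) lie farthest right, and matrix (-1.75), hypoxia (-1.54) and glycolysis (-1.46) genes farthest left.

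Red-cell genes were high in every pup. Of 35 tested, 33 were higher past 2-fold and 0 lower, with a median of 3.39. Hemgn, a nuclear protein of erythroid precursors, lay between 5.67 and 6.98 by its brightest probe, while another of its 3 probes averaged 2.04. Car2, carbonic anhydrase, lay between 4.69 and 5.71, the membrane anion exchanger Slc4a1 between 4.27 and 5.40 and the Kell antigen gene Kel between 4.13 and 5.04. The members not called were the embryonic globins Hbb-bh1 at 0.36 and Hbb-y at 0.42, with the reference above background on 1 and 2 arrays. Heme synthesis and breakdown genes were higher in 12 of 15 and lower in 0 (median 2.23). Alas2, the erythroid form of the rate-limiting enzyme, averaged 3.94 ± 0.08, and Cpox, a later step, averaged 3.02 ± 0.06. The inducible heme oxygenase Hmox1 stood at 0.39 and did not pass. In iron handling 9 of 15 were higher and 0 lower (median 1.76): the exporter ferroportin, Slc40a1, averaged 4.76 ± 0.05, the receptor Tfr2 4.79 ± 0.07 and Hfe 2.37 ± 0.03. The ferritin genes Fth1 (-0.50) and Ftl1 (0.03) did not pass.

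Other blood lineages were seen as well. Of 23 granulocyte genes 19 were higher and 1 lower (median 2.70). Mpo, myeloperoxidase of early granules, lay between 5.65 and 6.83, and the later granule genes Camp and Ngp averaged 6.19 ± 0.08 and 4.15 ± 0.06; Anxa1, made by many cultured cells, was the lower one at -1.71 ± 0.10. Megakaryocyte and platelet genes were higher in 12 of 15 (median 2.07), on the spike scale in 7; Ppbp, a platelet chemokine, lay between 5.24 and 5.79. Macrophage genes were higher in 18 of 21 and lower in 1 (median 2.96). Cd5l, an inhibitor of macrophage death, lay between 6.15 and 7.08 and the complement subunit C1qa averaged 3.99 ± 0.05, while the receptor kinase Axl was lower at -1.55 ± 0.05. Mast cell and basophil genes were higher in 5 of 8, led by the histamine-forming Hdc at 2.73 ± 0.04. For Kit, Mcpt8 and Cma1, among these 5, the reference was above background on 0, 3 and 3 arrays, so the liver channel alone kept them. Lymphoid genes split: 8 of 21 were higher and 3 lower, and the median of 0.37 became -0.52 on the spike scale. Rag1, Il7r and Gzma, among the 8, were likewise kept by the liver channel alone, with the reference above background on 0, 0 and 4 arrays. The early B-cell gene Vpreb3 averaged 2.89 ± 0.06 and the cytotoxic granule gene Gzmb 2.70 ± 0.06. T-cell genes were not uniform: Tcf7 (-2.16 ± 0.04), Thy1 (-1.92 ± 0.04) and Cd3g (-1.21 ± 0.05) were lower. Cd3g lost its call with median centring and without normalization. Lck (-0.86), Cd3e (0.16) and Cd3d (0.40) did not pass.

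Endothelial genes were higher in 22 of 24 and lower in 0, with a median of 3.12. Clec4g, a lectin of liver sinusoids, averaged 4.88 ± 0.06, Ehd3 4.07 ± 0.03 and the scavenger receptor Stab1 3.35 ± 0.04, with a second Stab1 probe at 0.87. Matrix and stellate cell genes went the other way in number: 4 of 37 were higher and 23 lower, with a median of -1.75. The 4 higher genes were Reln, a secreted glycoprotein of stellate cells, at 4.64 ± 0.05, Lum, a matrix proteoglycan, at 2.75 ± 0.06, Lrat, which stores retinol in stellate cells, at 2.20 ± 0.08, and Postn at 1.54 ± 0.07, the last not called on the spike scale. Among the lower were the protease inhibitor Timp1 at -3.01 ± 0.05 and the matrix-associated Ccn1 at -2.83 ± 0.04. Bile duct genes were divided, 6 higher and 3 lower of 15 (median -0.26). Cdh1, the epithelial cadherin, lay between 4.29 and 4.86 and the liver factor Onecut1 averaged 3.38 ± 0.06, neither restricted to ducts. The duct keratin Krt19 (-2.51 ± 0.08), Epcam (-2.38 ± 0.06) and Spp1 (-4.78 ± 0.10) were lower.

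Many markers of other organs were at or below background. Of 23 neural genes on the array 11 could be tested, of 20 testis genes 9, of 13 skin genes 8 and of 9 mammary genes 1. In those 4 lists together, 1 gene was called higher, and on the spike scale 0. Of 13 lung genes on the array 8 could be tested, with 0 higher and 1 lower. Of 16 gut and stomach genes 5 could be tested, and 3 of these were higher. They were Fabp2, the mucosal peptide gene Tff3 (4.52 ± 0.06) and Lgr5 (1.83 ± 0.06). Fabp2, a fatty acid carrier of the intestine, lay between 5.96 and 6.76 by its brighter probe and averaged 3.43 by the other. Lgr5, a receptor of intestinal stem cells, lost its call on the spike scale. Its reference signal was above background on 1 array, so the liver channel alone kept it. Among kidney, adrenal and fat genes, of which 8 of 21 could be tested, 1 was higher: Hsd3b1, a steroid-forming enzyme, at 4.84 ± 0.04. Skeletal muscle genes were lower in 6 of 22 and higher in 0. Exocrine pancreas genes are described with the pups below.

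The lowest ratio of a named gene belonged to Ifi202b, an interferon-inducible gene of the p200 family, between -6.50 and -5.79, 73.4-fold below the reference on average; its Cy5 signal was above background on 7 of 10 arrays. The calcium-binding proteins S100a4 (-5.09 ± 0.08) and S100a6 (-4.37 ± 0.08), the caveola protein Cav1 (-4.18 ± 0.09) and the intermediate filament protein Vim (-3.70 ± 0.05) were among the 20 lowest, and Vim lay between -3.86 and -3.34. The matrix genes Col8a1 (-4.04 ± 0.04), Efemp1 (-4.06 ± 0.08), Ogn (-3.68 ± 0.07) and Mmp3 (-3.81 ± 0.06) and the cell-cycle inhibitor Cdkn2b (-3.64 ± 0.05) were there too. The second probe of Cav1 read -1.42, so its size depends on the probe but not its direction. Of 28 cytoskeleton and adhesion genes 16 were lower and 0 higher, with a median of -1.34. Lgals3, galectin-3, averaged -3.21 ± 0.05 and Anxa3 -2.93 ± 0.04, while the actin gene Actb stood at -0.09 and did not pass.

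Glycolysis genes went both ways. Of 25 genes 14 were lower and 4 higher (median -1.46). The liver isoforms Slc2a2, a glucose transporter, and Pklr, a pyruvate kinase, were high at 5.28 ± 0.08 and 2.85 ± 0.04. For Slc2a2 the reference was above background on 3 arrays, so the liver channel alone kept it. Also called was the lactate transporter Slc16a1 at 1.23 ± 0.06, a call lost on the spike scale, in the females alone and in the deposited table, among others. Among the lower genes, the aldolase Aldoa averaged -2.07 ± 0.04, Pfkp -2.43 ± 0.05 and Pgam1 -2.65 ± 0.04. Pfkp read -0.35 by its second probe. Hypoxia-responsive genes were lower in 12 of 18 and higher in 1 (median -1.54), among them the collagen hydroxylases P4ha2 at -2.96 ± 0.04 and P4ha1 at -2.06 ± 0.04 and the oxygen sensor Egln3 at -2.01 ± 0.04. The 1 higher gene, the lipase inhibitor Angptl4 at 1.71 ± 0.09, was not called on the spike scale. Genes of the p53 response and of arrest were lower in 8 of 22 and higher in 3 (median -0.71), with Cdkn1a, the p53 target p21, at -1.68 ± 0.03 and Ccng1 at -1.91 ± 0.04.

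Proliferation genes differed little from the dividing cells of the reference. Of 45 cell-cycle genes 1 was higher (Ccne1, 1.51 ± 0.055) and 2 lower (Ccnd1, -1.23 ± 0.05; Ccnd2, -1.15 ± 0.05). The list median of -0.03 turned positive with median centring (0.14), without normalization (0.26) and with a smaller normexp offset of 16, and was -0.92 on the spike scale, where 0 genes were higher and 14 lower. None of the 3 calls held in every alternative: Ccne1 was lost on the spike scale, Ccnd1 and Ccnd2 with median centring, without normalization and in the females alone, and Ccnd2 also with the smaller offset, over the mean of its probes, in the males alone and when any of 5 single arrays was left out. Ribosomal protein genes were lower in 4 of 66 and higher in 0 (median -0.47), but lower in 46 on the spike scale; of the 4, Rpl14 at -1.90 ± 0.03 kept its call in every alternative. Respiratory chain genes were higher in 2 of 54 and lower in 1, with a median of 0.50 that became -0.39 on the spike scale. The lower gene was Cox7c at -2.10 ± 0.06, and the 2 higher, Uqcrq and Atp5g3, lost their calls on the spike scale and in the deposited table.

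Interferon-stimulated genes were higher in 10 of 31 and lower in 1, with a median of 0.67 that became -0.22 on the spike scale, where 5 were higher and 4 lower. Iigp1, an immunity-related GTPase that the liver expresses strongly, lay between 5.59 and 6.32, and its relative Igtp averaged 2.68 ± 0.05. Ifit1 (-0.45), Irf7 (-0.17) and Oas1a (-0.04), typical of type I interferon responses, did not pass. Cytokines and chemokines were lower in 8 of 28 and higher in 4 (median -0.64). The monocyte attractant Ccl2 averaged -3.33 ± 0.05 and Ccl7 -3.26 ± 0.05, whereas the myeloid chemokines Ccl6 (3.42 ± 0.07) and Ccl9 (2.35 ± 0.05) were higher.

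Some genes were above background in a single tissue only, so their ratio is a bound: the mean of the measured channel over the lowest signal that counts as above background in the other. The reference was not well above background on any array for Acot12, an acetyl-CoA hydrolase, at least 28.0-fold higher in liver. The same held for Sult1d1, a sulfotransferase, at least 27.1-fold, Hpgd, which inactivates prostaglandins, at least 21.7-fold, the glucuronosyltransferase Ugt2b37, at least 9.39-fold, the red-cell membrane protein Epb42, at least 10.3-fold, and Kynu of tryptophan breakdown, at least 9.13-fold. In the other direction liver was not well above background for Phex, an endopeptidase of bone, at least 8.37-fold lower, the forkhead gene Foxd1, at least 7.22-fold, the homeobox genes Dlx1, at least 3.59-fold, and Hoxa10, at least 3.46-fold, and the prostaglandin synthase Ptgs2, at least 3.21-fold. These genes had adjusted p from 1.9e-16 (Acot12) to 2.2e-08 (Hoxa10) in limma's 2-fold test of the measured ratios. In those ratios the dim channel is at background, and the filter kept these genes through the other channel alone. The p-values therefore do not test the bounds. Of 41174 probes, 1594 were above background on 5 or more arrays in Cy5 but not in Cy3, 2565 in Cy3 but not in Cy5, and 14629 in neither.

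The pups were alike for most transcripts. The median SD over the 10 pups was 0.121 for the log2 ratio, 0.140 for the liver channel and 0.101 for the reference channel after Aquantile scaling between arrays. Because the reference RNA was common to all arrays, its spread holds no difference between pups. For the 54 transcripts with a mean ratio above 6, however, the reference channel varied more than the liver channel in 87.0%, with median SDs of 0.382 and 0.172; among the 9656 transcripts between 0 and 2 this was so in 15.7%. Of the 20 highest genes the reference varied more in 19. Before normalization, the Afp signal of the liver ranged from 451202 to 500189, 1.11-fold, and that of the reference from 978 to 3829, 3.92-fold. For Alb the liver range was 1.16-fold and the reference range 2.36-fold, and for Fabp1 they were 1.39-fold and 4.26-fold. For these 3 genes control female 8, control male 7 and control female 11 had low reference signals and control female 4 and control male 3 high ones. The spread between pups in the ratios of the most liver-enriched genes therefore lies in the reference channel, and its cause was not tested.

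**Figure D3:**
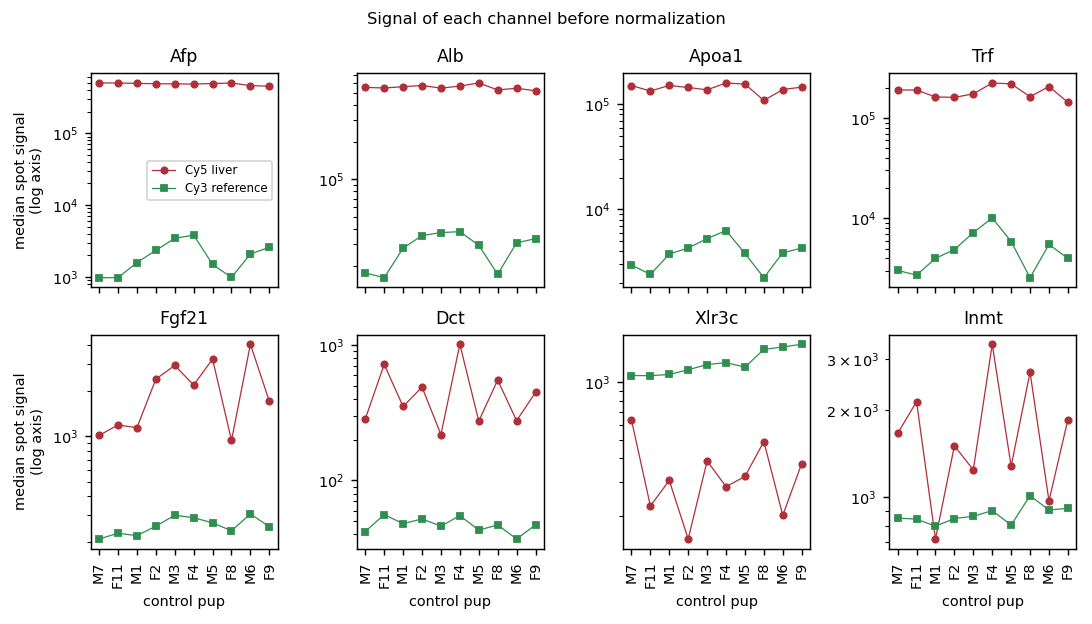
Median spot signal before normalization (y axis, log scale) in each control pup (x axis, M male and F female by label, with the sample number) for the liver in Cy5 (red circles) and the reference RNA in Cy3 (green squares). For Afp the liver signal spans 1.11-fold and the reference 3.92-fold, whereas for Fgf21 the liver spans 4.32-fold and the reference 1.46-fold.

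Among the 12 named genes with the largest SD of the ratio, of those whose liver signal was well above background in all 10 pups, 5 (Afp, Csta1, Apoh, Fabp1 and Trf) had a reference SD above 0.3. The other 7 varied in the liver channel. Fgf21, a fasting and lactation-induced hormone of the liver, lay between 1.66 and 3.39 with a liver SD of 0.71 and a reference SD of 0.15. Its 4 lowest ratios were in control males 7 and 1 and control females 11 and 8. Xlr3c, an X-linked gene of a multicopy family, lay between -3.43 and -1.29 and its relative Xlr4b between -3.38 and -1.50. Inmt, a methyltransferase, lay between -0.56 and 1.60, the atrial myosin light chain Myl7 between 0.44 and 2.43 and Tmcc2 between 1.38 and 3.31. The melanin enzyme Dct read 1.46 to 3.49, but its reference signal was not well above background on any array, so that its level is only bounded, at least 4.98-fold higher in liver.

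Across lists, the channel that varied differed as well. The median deviation of the plasma carriers from the mean of the 10 pups spanned 1.20 in the reference and 0.17 in the liver, and that of the coagulation genes 1.11 and 0.15. For red-cell genes the spans were 0.48 in the reference and 1.30 in the liver, from -0.73 in control female 9 to 0.57 in control female 11. Heme synthesis genes had the same 2 pups at the ends of the liver channel, from -0.51 to 0.38, and so did cell-cycle genes, where female 9 had the lowest list median of the ratio (-0.35) and female 11 the highest (0.22). Interferon-stimulated genes spanned 0.55 in the liver and 0.13 in the reference, with control male 7 highest. By ratio, control female 8 had the highest median in 18 of 50 lists and control female 4 the lowest in 14. The consensus correlation of arrays sharing a slide was 0.221 and of those sharing a scan day 0.061.

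**Figure D4:**
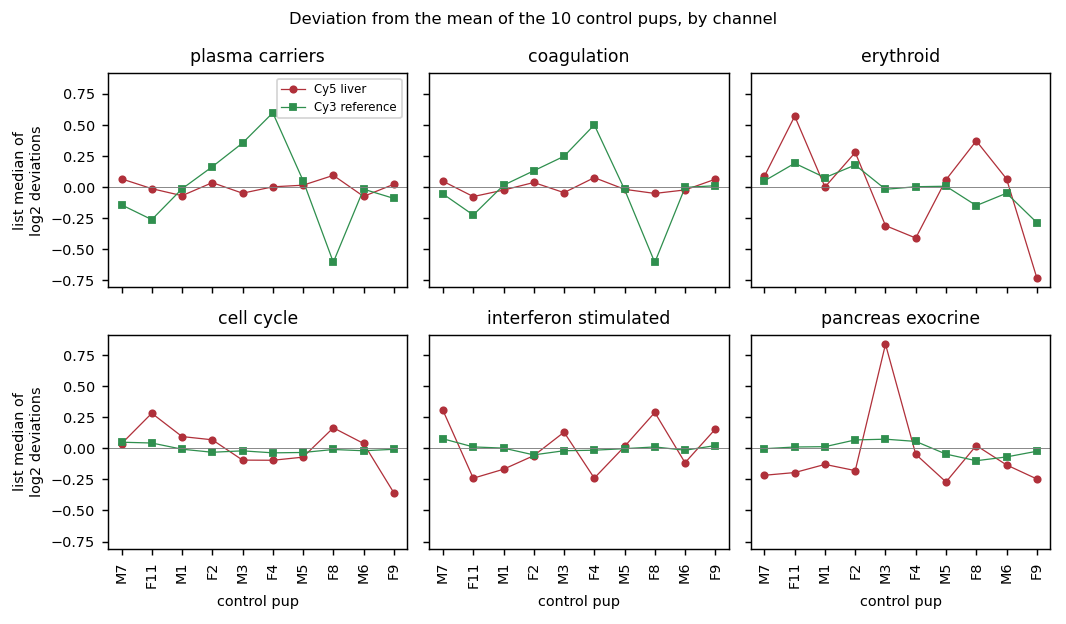
Deviation of each control pup from the mean of the 10 control pups, as the median over the genes of a list (y axis, log2), separately for the liver channel (red circles) and the reference channel (green squares); pups on the x axis, M male and F female by label. Plasma carriers and coagulation genes vary in the reference channel, red-cell genes mainly in the liver channel (-0.73 to 0.57), and pancreas genes stand high in the liver of control male 3 (0.84).

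Exocrine pancreas genes separated 1 pup from the rest. Of 24 genes of the list 14 could be tested, and 2 were higher past 2-fold (Amy2a5, 5.34 ± 0.06, and Pnliprp1, 2.81 ± 0.13). For Pnliprp1 the reference was above background on 3 arrays, so the liver channel alone kept it. The list median was 0.42, or -0.48 on the spike scale and 0.22 without control male 3. In control male 3 the list median was 1.48, against 0.08 to 0.62 in the other 9 pups, and 11 of the 14 genes were highest there. The elastase Cela3b read 3.46 in that pup and at most 0.88 elsewhere, the trypsinogens Prss3 3.07 and 0.69 and Try5 1.98 and 0.42, and the colipase Clps 2.28 and 0.70. These 4 genes were chosen after their values were seen. Amy2a5 was not raised in that pup, at 5.09, the lowest of the 10. In single exposed pups the list median ran from 0.13 to 3.65.

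Labelled males and females were compared within the controls. At an adjusted p of 0.05, limma called 0 of 21252 transcripts (0%), with 705 at an unadjusted p under 0.05 and a smallest adjusted p of 0.166. The library labelled control male 6 went against its label in the sex-linked genes. Its Xist, the RNA that silences an X chromosome in females, read 1.98, inside the female range of 1.65 to 2.09, against -2.34 to -1.51 in the other labelled males. Its Y-linked Ddx3y read -2.11 and Eif2s3y -1.76, against 1.73 to 2.11 and 2.53 to 2.83 in the other labelled males. Without that library 9 transcripts (0.0423%) were called, 3 higher and 6 lower in males: Eif2s3y (4.23 ± 0.08), Ddx3y (3.81 ± 0.12), Xist (-3.78 ± 0.15), Kdm5d (0.93 ± 0.07) and 5 probes without a name, the values being measured differences of males minus females and their SE. The liver signal of Eif2s3y and Kdm5d was well above background in 4 of these 4 males and in 0 of 5 females, so their sizes are bounds, at least 18.1-fold and 1.88-fold higher in males. Ddx3y was above background in 1 of the 5 females and Xist in 1 of the 4 males, so most values on their low side are also at background.

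Beyond the sex-linked genes, the smallest p belonged to Dct. It read 1.46 to 2.01 in the labelled males, with 1.85 in the library labelled control male 6, and 2.53 to 3.49 in the labelled females. Its liver signal was well above background in every pup and its reference signal in none, so these ratios order the pups but do not give the level against the reference. The difference of males minus females was -1.15 ± 0.16 with an adjusted p of 0.166, or -1.18 ± 0.18 and 0.0538 without that library, in limma. Dct was picked by its p out of all transcripts tested, and how many others separate the labelled groups without overlap was not counted. Labelled sex was tied to the position on the slide, with every control male at position 1 and every control female at position 2. In the library labelled control male 6, Dct lay with the labelled males and the sex-linked genes with the females. Label and position cannot be told apart. Inmt (-1.04 ± 0.22), Hsd3b4 (-0.71 ± 0.13), Kyat1 (-0.39 ± 0.08), Cacng1 (-0.33 ± 0.06) and Rtn2 (-0.26 ± 0.05) had the next smallest p among named genes that are not sex-linked, each with an adjusted p of 0.719.

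**Figure D5:**
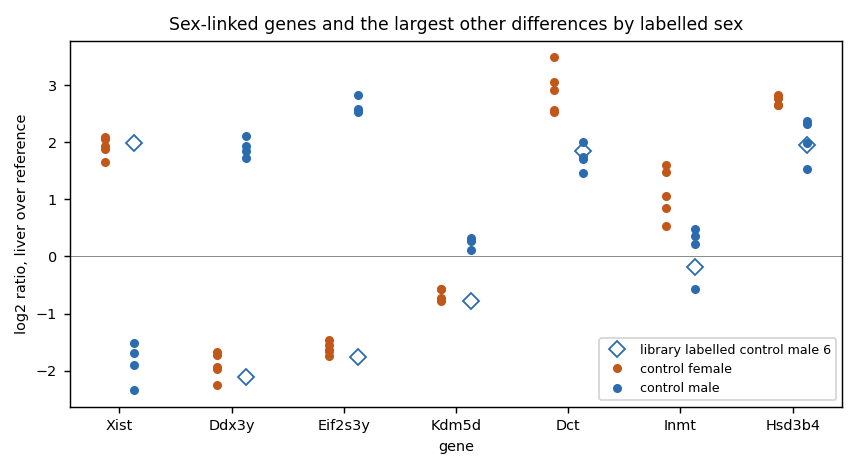
Log2 ratio of liver over reference (y axis) for 4 sex-linked genes and 3 others (x axis), 1 point per control pup, females orange and males blue by label, with the library labelled control male 6 as an open diamond. That library lies with the females for Xist (1.98) and Ddx3y (-2.11) and with the labelled males for Dct (1.85).

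The same profile was read in the 8 exposed pups, side by side and without a test. All 20 of the highest genes were above a log2 ratio of 1 on every exposed array, with means of at least 6.62, and 18 of the 20 lowest were below -1 on every exposed array. Afp averaged 7.60 in exposed and 7.68 in control pups, Alb 4.01 and 3.95, and Apoa1 4.93 and 4.87. Ttr averaged 4.35 and 4.88, Akr1c6 6.74 and 8.04 and Hemgn 5.63 and 6.24. Single exposed pups ran from 2.31 to 4.99 for Ttr and from 2.98 to 8.41 for Akr1c6, ranges that include the control means. The red-cell list medians of single pups ran from 2.22 to 3.48 in exposed and from 2.89 to 4.10 in control pups, and those of the cell-cycle list from -1.59 to 0.09 and from -0.35 to 0.22.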

How the data were processed

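RNA was measured on Agilent 4x44K arrays with 2 colours, 1 pup per array. Per the file headers, the scans were read with Feature Extraction 10.1.1.1, which gave each spot's signal and background as intensity and a log10 ratio of Cy5 to Cy3. The deposited value table has log2 ratios in the same direction, normalized by the authors in a way not given in the sources used here.

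Median signals were corrected with normexp (offset 50) and normalized by loess within arrays with limma 3.58.1 in R 4.3.3, leaving out control spots and outliers. Probes well above background in Cy5 or Cy3 on at least 5 of the 10 control arrays were kept (26545 of 41174). A gene was represented by its brightest probe over both channels. Accessions matched to RefSeq GRCm38.p6 named 56.8% of probes; 12670 named genes and 8582 unnamed probes were tested. The mean ratio was tested against 0 (lmFit, eBayes) and against a 2-fold change (treat), 2-sided, with Benjamini-Hochberg adjustment over all 21252 transcripts; males and females were compared with the same tool. The fit was tested on simulated data. Single-channel values come from Aquantile scaling. The number of arrays limits the precision. Alternatives covered the normalization, background, signals, value table, filter, probe rule, blocks, array weights, each sex and each array left out.

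Named were the 4 markers, the 20 highest and 20 lowest named genes past the 2-fold test with both channels measured on at least 5 arrays, the 10 largest bounds each way, up to 4 members per list and direction with the smallest p, the 12 with the largest SD among those with Cy5 well above background on all 10 arrays, and the sex-linked list with 6 others for sex; others are given as values, and some genes of the rule are not reported here. The samples and lists were chosen with earlier results of these data known.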

Additional observations from a re-analysis of the deposited data

Results flagged for a closer look

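Among 120 values tested (list medians per pup and named genes), 8 had a control pup far from the other 9, near the share of about 5% that chance gives. Several of these values share a pup, so they are not independent. They are listed as descriptions, and this count does not set any pup apart. The glucose production list stood at 3.54 in the library labelled control male 6, against 2.86 to 3.17 in the others. Control female 8 was highest for amino acid breakdown (4.71, next 4.27), for genes that rise after birth (2.87, next 2.62) and for Rgn (9.20, next 8.60), and lowest for Mycl (-4.22, next -3.83). For these lists of female 8, the median deviation from the mean of the pups was -0.006 and -0.022 in the liver channel. In the reference channel it was -0.34 and -0.23, so the high list ratios lay in the reference. The cytoskeleton and adhesion list was lowest in control male 7 (-1.53, next -1.39). The exocrine pancreas list stood at 1.48 in control male 3, with the next pup at 0.62. Slc16a12, a membrane transporter whose reference signal was not well above background, stood at 3.61 in control female 4, with the next pup at 3.21.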

How the results depend on the processing

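Liver against reference kept its direction for the 261 named genes past the 2-fold test in every alternative that tested them. Of these, 232 kept the call in every alternative that tested them. Of the 29 that lost it in at least 1, 19 did so on the spike scale, 13 of them only there. The rule named genes largely by extreme ratios or small p, so these counts do not describe all 3800 calls. The spike scale was added after seeing the data and the other alternatives were planned. Without normalization within arrays, 5824 transcripts were lower at adjusted p 0.05 (11873 higher), against 9186 and 9670. On the spike scale 2542 were higher and 17337 lower. Past 2-fold, 7099 transcripts were called with the processed signals (3577 lower) and 7180 on the spike scale (1148 higher, 6032 lower), against 3800. The cause was not tested. The median of all transcripts moved by 0.203 without normalization, by -0.154 with the processed signals and by -0.128 in the value table. Of the 7 named genes not past the 2-fold test, 5 changed sign in at least 1 alternative. Inmt did so on the spike scale (-0.31). The others were sex-linked: Ddx3y (1.098) and Kdm5d (0.044) in the males alone, Xist with the processed signals (-0.68), in the males alone (-1.09) and on the spike scale (-0.48), and Eif2s3y with a normexp offset of 16 (-0.33), with the processed signals (-2.06), in the females alone (-1.61) and on the spike scale (-0.82). Leaving out each array moved Eif2s3y between -0.24 and 0.27. Leaving out each array in turn gave 0 to 9 calls for males against females, the 9 without control male 6. No paired analysis was possible because the controls of each sex share no replicate numbers, if pairs are taken by number. Each slide held 1 control male and 1 control female, which pairs them by slide. With slide as a block limma called 0 transcripts as different between the sexes. That fit included the library labelled control male 6, and it was not repeated without it. Signal over background limits ratios of genes measured in a single channel to bounds, and the Cy5 range limits those of the most abundant liver transcripts.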
